A study of Agaricus blazei with 33 samples.

Results

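The genes described here are the protein kinase genes of the basidiomycete mushroom Agaricus blazei, strain JA. A gene was taken as a member when its deposited description held the Pfam domain PF00069 (protein kinase domain) or PF07714 (protein tyrosine kinase), a rule that uses no expression value. It took 140 of the 10337 genes in the table, with 133 predicted from the genome by Augustus and 7 assembled from the reads by StringTie. The latter are called assembled genes here and named by contig. RNA-seq had been run on 33 libraries, 3 for each of 11 conditions, all of the same strain with no mutant and no agent added. These were mycelia taken 20 days after casing (the covering of the compost with a soil layer that lets fruiting begin), primordia, the whole fruit body at the button, harvest and maturation stages, and the pileus (cap) and the stipe (stalk) at each of those stages. No source used here says whether a library came from 1 mushroom or from several, or which libraries share a mushroom, so the p-values below measure the spread between these libraries. In bulk tissue, fewer cells of a type and less RNA per cell cannot be told apart.

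Protein kinases transfer phosphate from ATP to serine, threonine or tyrosine residues of other proteins, and so switch enzymes, transcription factors and the cytoskeleton on and off. In fungi they carry the MAP kinase cascades that read pheromone, osmotic and cell-wall signals, the cAMP-dependent and nutrient-sensing pathways, and the cyclin-dependent kinases that drive the cell cycle. In a mushroom the gills under the pileus bear the basidia, where meiosis takes place and spores form, while the stipe lifts the cap by elongation of its cells. Most fungi have no receptor tyrosine kinases, and the PF07714 profile also matches tyrosine-kinase-like proteins, so the domain name does not tell which residue is phosphorylated.

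The libraries held 15573864 to 21454052 reads on genes, with a median of 18106545. Each library was set against the pileus and the stipe libraries by correlation over the 9449 genes with a mean of at least 0.5 FPKM (fragments scaled to the length of the gene and to the size of the library, the deposited unit), and 2 libraries stood apart from their label. The library labelled button stipe 1 had a median correlation of 0.943 with pileus libraries and 0.934 with stipe libraries, and the library labelled maturation pileus 3 had 0.894 with pileus and 0.949 with stipe. The other 16 pileus and stipe libraries correlated better with their own tissue. For the kinase genes, counts of calls in pileus and stipe, and the differences of named genes that these libraries moved most, are given with and without them. Calls and differences of the meiosis genes and of genes that work with kinases are given with all libraries only. The whole fruit bodies differed among themselves in the same respect, from button fruit body 2 (0.880 with pileus, 0.977 with stipe) and maturation fruit body 1 (0.829 and 0.983) to maturation fruit body 3 (0.992 and 0.829). Among stage and tissue markers, the summed level of 6 meiosis genes (HORMA domain, Mnd1, Tat-binding-protein-interacting and type IIB topoisomerase among them) was 777, 663 and 282 FPKM in maturation pileus 1, 2 and 3, and 207 to 226 FPKM in the maturation stipes. All 6 were above 0 in every library. The 36 genes of compost-degrading enzymes (cellulases and peroxidases) summed to 665, 645 and 1566 FPKM in the mycelia and to 345 to 353 FPKM in the primordia. They also summed to 702 FPKM in maturation pileus 3 and to 593 FPKM in harvest fruit body 2. The sum thus did not set every mycelia library apart from the later ones.

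Most kinase genes were expressed throughout the life cycle. Of the 140, 128 had a mean of at least 1 FPKM in all 11 conditions, 97 had at least 10 FPKM in all of them, and 1 (the assembled gene of contig 25, 195599 to 196960) stayed under 1 FPKM in all. Averaged over conditions, the median kinase gene stood at 46.6 FPKM (quartiles 19.9 and 87.3), and the median of the 9449 genes at 31.1 FPKM. The condition means of a kinase gene spanned a median of 1.53 on the log2(FPKM + 0.1) scale, against 1.85 for all genes. A span of at least 2 was found for 50 of the 138 kinase genes with a mean of at least 0.5 FPKM (36.2%) and for 45.4% of all genes, and a span of at least 4 for 13 (9.42%) and for 14.2%. These shares are a description of the same libraries and were not tested. The highest mean fell in the maturation stipe for 26 kinase genes (18.8%, against 15.5% of all genes) and in the harvest stipe for 22 (15.9%, against 7.46%). It fell in the maturation pileus for 20 (14.5%, against 13.4%) and in the harvest fruit body for 18 (13.0%, against 7.24%). The mycelia held the highest mean of 15 kinase genes (10.9%, against 22.7% of all genes).

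**Figure D1:**
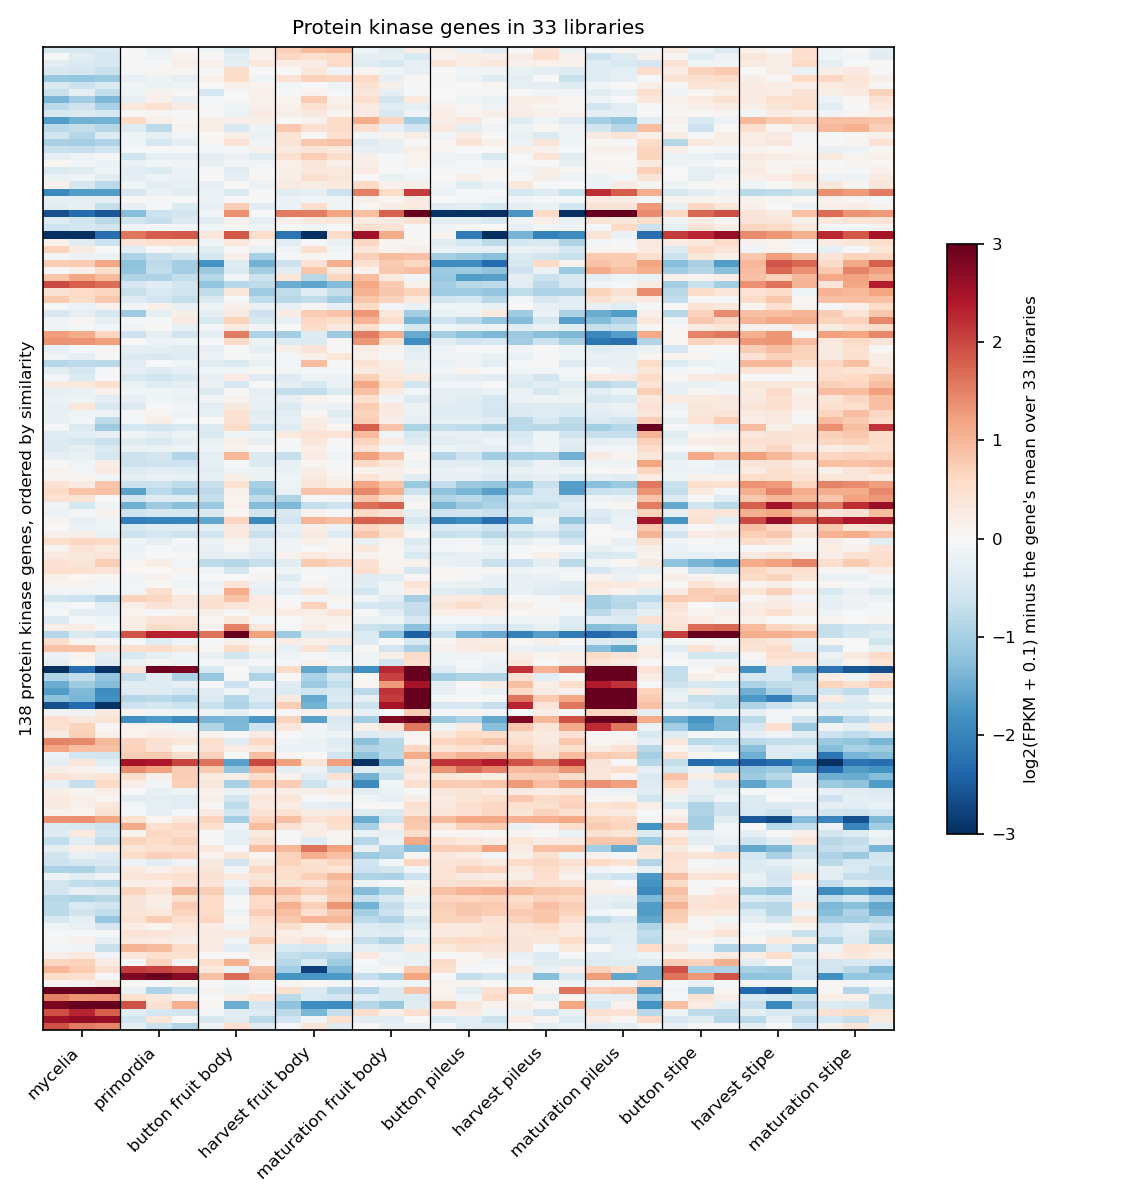
Heat map of 138 kinase genes (rows, ordered by similarity of their profiles) in 33 libraries (columns, 3 for each condition). The colour is the log2(FPKM + 0.1) level minus the mean of the gene over all libraries, red above and blue below, cut at 3 in either direction. The 3 mycelia libraries stand out at the bottom, a block of genes is red in the first 2 maturation pileus libraries, and maturation pileus 3 looks unlike its neighbours.

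The 13 genes with PF07714 and no PF00069 varied more than the 125 with PF00069 and no PF07714. Among those with a mean of at least 0.5 FPKM, 9 of 12 with PF07714 spanned at least 2 on the log2 scale (median span 3.17), compared with 40 of 124 with PF00069 (32.3%, median span 1.33). Of all genes, 45.4% spanned at least 2 (median span 1.85). The levels of the PF07714 genes were lower, with a median of 9.37 FPKM against 49.5 FPKM, and the part of level in the span was not tested. Of the 5 largest spans, 3 were those of PF07714 genes. A07516 (PF07714, contig 4, 2006767 to 2011900) had the largest span of all members, 7.34, with a lowest condition mean of 10.2 FPKM in the button pileus and a highest of 1661 FPKM in the maturation pileus. It was followed by A04418 (6.35), A07368 (6.34, PF07714), A03522 (5.87) and A00056 (5.43, PF07714). A further 2 genes carried both domains.

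The kinase gene with the highest level was A03188, a gene of PF00069 on contig 1 (3530229 to 3531954) with an average of 929 FPKM over conditions. It stood at 2360, 2838 and 2830 FPKM in the maturation stipes and at 2044, 3201 and 1876 FPKM in the harvest stipes, but at 130, 140 and 108 FPKM in the button pilei. Its 6 libraries of older stipe were thus all far above the young pileus. The next was A04221, also on contig 1 and of the same deposited length (1104 bp), with an average of 783 FPKM and a span of 1.06, from 564 FPKM in the harvest pileus to 1179 FPKM in the maturation stipe. At the other end, A07966 spanned 0.29, with condition means of 40.5 to 49.7 FPKM. A00253, which the study's annotation matches to the kinase ppk16 of fission yeast, spanned 0.41.

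The step from mycelia to primordia, the start of fruiting, moved about as large a part of the kinase genes as of other genes. In this and the following comparisons a gene was called at a Benjamini-Hochberg adjusted p under 0.05 (limma, over all genes tested) and a fold change of 1 or more in either direction on the log2 scale. Of 139 kinase genes tested, 47 were called (33.8%), 26 higher and 21 lower in primordia, where 37.5% of all genes were called, 15.1% higher and 22.5% lower. The median difference was 0.08 for the kinase genes and -0.04 for all genes on the log2 scale. With libraries scaled to their totals, the median of all genes moved to 0.31 and the calls to 32 higher and 14 lower. The share of all genes called under that scaling is not given here.

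**Figure D2:**
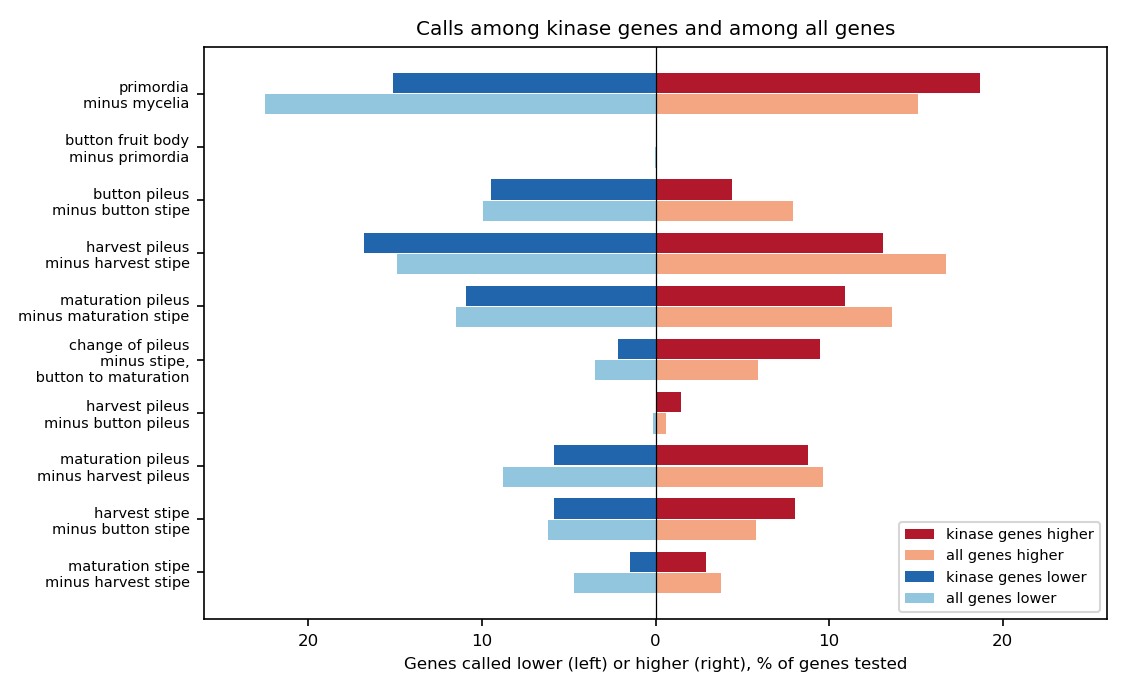
Percentage of the kinase genes (dark) and of all genes tested (light) called higher (right, red) or lower (left, blue) in each of 10 comparisons, with bars starting at 0. From mycelia to primordia, 18.7% of the kinase genes were called higher and 15.1% lower, against 15.1% and 22.5% of all genes.

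The largest rise was that of A05084, a short gene of PF00069 (351 bp, contig 24, 142618 to 143169). It stood at 0.86, 3.76 and 6.17 FPKM in the mycelia and at 92.2, 106 and 108 FPKM in the primordia. The primordia agreed closely while the mycelia differed several-fold, and the groups did not overlap. The log2 fold change was 5.16 (SE 0.61, adjusted p = 0.000222). A04418 (contig 20) stood at 1.55, 3.04 and 1.42 FPKM in mycelia and at 20, 115 and 110 FPKM in primordia. Primordia 1 was lower than the others but still above all mycelia, and the difference was 4.996 (SE 0.66, adjusted p = 0.000407). A03511 (contig 1) rose from 7.38, 9.89 and 8.71 FPKM to 49.7, 67.6 and 66.5 FPKM, with tight replicates in both groups and a difference of 2.80 (SE 0.17, adjusted p = 1.09e-05). None of the 3 has a domain besides the kinase domain.

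The falls were led by neighbours. A00056 and an assembled gene (544041 to 545898) lie next to each other on contig 10 and both carry PF07714. A00056 stood at 9.85, 11.5 and 9.14 FPKM in mycelia and 0.88, 0.485 and 0.611 FPKM in primordia, a fall of 3.78 on the log2 scale (SE 0.24, adjusted p = 1.36e-05). For the assembled gene the values were 3.3, 3.73 and 3.28 FPKM against 0.371, 0.157 and 0.305 FPKM, a fall of 3.27 (SE 0.31, adjusted p = 7.72e-05) that rests on 238 reads in the mycelia and 27 in the primordia. Both were low in every later condition as well. A01314 (contig 13), whose model joins the kinase domain to an HhH-GPD domain of base-excision DNA repair glycosylases, was the most abundant of the 3. It stood at 238, 257 and 256 FPKM in mycelia and 26.8, 52.8 and 40.3 FPKM in primordia, a fall of 2.70 (SE 0.23, adjusted p = 4.62e-05). In the 27 later libraries A01314 stayed between 22.4 and 61.4 FPKM, so that the mycelia stood apart from every other condition.

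Between primordia and whole button fruit bodies no kinase gene was called among 138 tested with limma, and 0.0324% of all genes were (0.0216% higher and 0.0108% lower). At an unadjusted p under 0.05 there were 16 kinase genes. The share of all genes under that threshold is not given here, so the 16 cannot be set against other genes. A fit by limma-voom on reads recovered from the FPKM values also called 0 kinase genes. Replicates with the same number deviated together in this comparison (correlations of 0.130, 0.301 and 0.130 across genes), and a fit with the replicate number as a block, which pairs them, called 0 kinase genes too. The button fruit bodies were uneven. A05084 had 37.7, 111 and 43.7 FPKM in them, A03511 had 41.5, 117 and 31 FPKM, and A03188 had 176, 811 and 136 FPKM. In each case the library with the high value was button fruit body 2, the one that correlated better with stipe. Without it, 3 kinase genes were called, all lower in the fruit body. They were A04825 (-1.88, SE 0.13, adjusted p = 0.00202), A04818 (-1.43, SE 0.18, adjusted p = 0.00822) and A05084 (-1.33, SE 0.12, adjusted p = 0.00433). The share of all genes called in that fit is not given here, so this count cannot be set against other genes.

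Pileus and stipe were then compared at each stage in a fit over their 18 libraries. At the button stage 19 of 137 kinase genes were called (13.9%, against 17.9% of all genes), 6 higher and 13 lower in the pileus. The share of members called higher was 4.38% (7.91% of all genes) and the share called lower 9.49% (9.96% of all genes). Without button stipe 1 and maturation pileus 3 there were 28 calls, 10 higher and 18 lower (20.4% of members, against 29.5% of all genes, 13.7% higher and 15.7% lower). Leaving out button stipe 2 alone gave 11 calls, and button stipe 3 alone 10. With libraries scaled to their totals, the median of all genes moved by 0.19 and the split was 8 higher and 10 lower. Under that scaling 1719 of 9338 genes were called. Here and below, a count of calls without the share of all genes beside it does not set kinase genes apart.

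The strongest stipe gene of the young mushroom was A07516. Its levels were 23.1, 4.31 and 3.07 FPKM in the button pilei and 289, 624 and 712 FPKM in the button stipes. Every stipe library was at least an order of magnitude above every pileus library, and the lowest stipe value was that of button stipe 1. The pileus was lower by 6.20 (log2 difference -6.20, SE 1.05, adjusted p = 0.000935), and without the 2 libraries the difference was -6.60. A05084 stood at 32.6, 7.07 and 2.56 FPKM in the button pilei and 130, 149 and 187 FPKM in the button stipes (-4.17, SE 0.72, adjusted p = 0.000998). A03511 stood at 8.36, 5.12 and 4.64 FPKM in pilei and 55.5, 111 and 116 FPKM in stipes (-3.92, SE 0.38, adjusted p = 3.01e-05), with button stipe 1 again the lowest of its group. A05084 and A03511 thus rose from mycelia to primordia and were then on the stipe side of the button mushroom.

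The highest pileus to stipe difference at the button stage belonged to the assembled gene of contig 22 (557279 to 561195). Its levels were 14, 14.3 and 16.2 FPKM in the pilei and 1.83, 0.537 and 0.58 FPKM in the stipes, so the pilei were nearly equal and button stipe 1 was the highest stipe. The difference was 3.99 (SE 0.42, adjusted p = 3.77e-05), or 4.50 without the 2 libraries. Its neighbour A04813, which carries a GTPase domain beside PF07714, had 1.99, 2.61 and 2.22 FPKM in pilei against 0.481, 0.644 and 0.382 FPKM in stipes (1.99, SE 0.31, adjusted p = 0.000596). A05364 (contig 27) had 30.1, 34.5 and 33.6 FPKM against 18.1, 7.63 and 11.8 FPKM (1.46, SE 0.38, adjusted p = 0.0107). That call was lost without button stipe 2 (1.16, adjusted p = 0.0657).

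At harvest the tissues differed more. Of 137 kinase genes, 41 were called (29.9%, against 31.6% of all genes), with 18 higher and 23 lower in the pileus (16.7% and 14.9% of all genes). The median difference was -0.25 for the kinase genes and 0.01 for all genes. Without the 2 libraries, which enter this comparison through the shared variance alone, there were 45 calls, 20 higher and 25 lower (34% of all genes, 18.1% higher and 15.9% lower). With libraries scaled to their totals, the median of all genes moved to 0.37 and the split turned to 30 higher and 18 lower. Under that scaling 3239 of 9338 genes were called. The leading stipe genes were A03188, A05084 and A03511. A03188 stood at 198, 468 and 231 FPKM in the harvest pilei and 2044, 3201 and 1876 FPKM in the stipes, so even the lowest stipe was well above the highest pileus (-3.05, SE 0.66, adjusted p = 0.00179). A05084 had 11.5, 7.36 and 7.94 FPKM against 81, 74.9 and 63.4 FPKM (-3.04, SE 0.72, adjusted p = 0.00313). A03511 had 3.2, 4.21 and 3.02 FPKM against 28, 28.6 and 26.8 FPKM (-2.98, SE 0.38, adjusted p = 6.41e-05), a smaller level in both tissues than at the button stage.

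On the pileus side at harvest, the assembled gene of contig 22 led again with 11.7, 9.28 and 13.9 FPKM against 0.489, 0.547 and 0.797 FPKM (4.05, SE 0.42, adjusted p = 1.37e-05). A05364 had 31.8, 32.5 and 34.5 FPKM in the pilei and 2.61, 2.29 and 6.18 FPKM in the stipes (3.26, SE 0.38, adjusted p = 3.7e-05). The pileus levels of this gene were close to those at the button stage, while the stipes had gone down. A00056, the mycelial gene of contig 10, had 2, 1.13 and 3.36 FPKM against 0.121, 0.0928 and 0.197 FPKM (3.15, SE 0.60, adjusted p = 0.000852). The stipe values of A00056 rest on 4 reads over the 3 libraries.

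At maturation 30 of 137 kinase genes were called (21.9%, against 25.1% of all genes), with 15 higher and 15 lower in the pileus (13.6% and 11.5% of all genes). This count depended on the odd pileus library, and the share of all genes called also moved without both odd libraries. Without it there were 48 calls, without maturation pileus 1 there were 19, and without both button stipe 1 and maturation pileus 3 there were 49, 24 higher and 25 lower (35.8% of members, against 38.4% of all genes, 20.3% higher and 18.1% lower). The genes highest in the mature cap were A04418, A03522 and A07368. A04418 stood at 269, 224 and 20.7 FPKM in the pilei and 3.19, 2.48 and 2.34 FPKM in the stipes. The first 2 pilei were far above the stipes, and maturation pileus 3 was in between (5.30, SE 0.70, adjusted p = 9.35e-05, and 6.48, SE 0.34, without the 2 libraries). A03522 (contig 1) had 74.1, 62.4 and 6.15 FPKM against 1.08, 1.58 and 1.85 FPKM (4.29, SE 0.70, adjusted p = 0.00039, and 5.44 without the 2 libraries). A07368 (contig 4, PF07714) had 171, 134 and 14.6 FPKM against 5.86, 5.93 and 5.92 FPKM (3.54, SE 0.67, adjusted p = 0.00105, and 4.66 without them).

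Lower in the mature cap were, by the largest differences, A05084, A08374 and A09388. A05084 had 40.1, 26.8 and 6.16 FPKM in the pilei and 144, 111 and 172 FPKM in the stipes (-2.89, SE 0.72, adjusted p = 0.00557). Its maturation pileus 3 was the library farthest from the stipes, and the difference was -2.09 (SE 0.68, adjusted p = 0.0145) without the 2 libraries. A08374 (PF07714) had 6.51, 6.09 and 15.8 FPKM in the pilei and 37.2, 45 and 39 FPKM in the stipes, with maturation pileus 3 the closest to the stipes (-2.22, SE 0.29, adjusted p = 8.03e-05, and -2.66 without the 2 libraries). A09388 had 18.1, 22.1 and 154 FPKM against 163, 158 and 189 FPKM. Here maturation pileus 3 was level with the stipes, and the difference was -2.10 (SE 0.62, adjusted p = 0.015), or -3.08 (SE 0.29, adjusted p = 6.82e-07) without the 2 libraries. Without maturation pileus 1 or maturation pileus 2 the call of A09388 was lost (adjusted p = 0.0858 and 0.0774).

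At all 3 stages 10 kinase genes were called in the same direction, 6 lower in the pileus (A02066, A03511, A05084, A08238, A09388 and A09773) and 4 higher (A04813, A05364, A09436 and the assembled gene of contig 22). Without the 2 libraries there were 15, among them these 10. The share of all genes called at all 3 stages is not given here, so these counts do not set kinase genes apart from other genes. In the mature pileus the assembled gene was down to 4.04, 2.99 and 1.65 FPKM, with 0.264, 0.577 and 0.547 FPKM in the stipe (2.38 on the log2 scale). A04813 stood at 0.982, 1.12 and 0.593 FPKM against 0.0674, 0.163 and 0.145 FPKM there, a difference of 2.14.

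The change of the pileus to stipe difference from button to maturation was tested directly. It was called for 16 of 137 kinase genes (11.7%, against 9.38% of all genes), with 13 toward the pileus and 3 toward the stipe (5.9% and 3.48% of all genes). Without button stipe 1 and maturation pileus 3 it was called for 38, 21 and 17 in the respective directions (27.7% of members, against 26.6% of all genes, 15.7% toward the pileus and 11% toward the stipe), and without maturation pileus 3 alone for 33. With libraries scaled to their totals the split was 13 and 7, where 827 of 9338 genes were called. A07516 changed most. It was on the stipe side in the button, as given above, and stood at 2403, 2081 and 501 FPKM in the mature pilei against 604, 478 and 457 FPKM in the mature stipes. Maturation pileus 3 lay within the range of the stipes while the other pilei were several-fold above it. The pileus to stipe difference of A07516 at maturation was itself not called (1.42, SE 1.05, adjusted p = 0.289). Without the 2 libraries it was not called either (2.13, SE 1.13, adjusted p = 0.109). The change was 7.61 (SE 1.49, adjusted p = 0.00537), and 8.74 (SE 1.59, adjusted p = 0.000768) without the 2 libraries. A04418 changed by 5.39 (SE 0.99, adjusted p = 0.00367) and A03522 by 3.95 (SE 0.99, adjusted p = 0.0179). The call of A03522 was lost in a fit of all 33 libraries (adjusted p = 0.0542) and with limma-voom (adjusted p = 0.155). Neither differed between the button tissues by as much as 0.5 on the log2 scale.

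Toward the stipe, A06788 (contig 3) changed by -2.08 (SE 0.28, adjusted p = 0.000615). It stood at 34.4, 37.9 and 30.7 FPKM in button pilei and 32.4, 21.6 and 26.3 FPKM in button stipes, and at 14.9, 13.2 and 23.9 FPKM in mature pilei and 56.1, 54.6 and 53.5 FPKM in mature stipes. A02254 (contig 16) changed by -1.59 (SE 0.25, adjusted p = 0.00167), from 183, 174 and 131 FPKM against 90.2, 78.2 and 68.9 FPKM at the button stage to 191, 216 and 250 FPKM against 298, 360 and 302 FPKM. Pileus and stipe libraries of this gene did not overlap at either stage, and their order was the opposite. A07975 (contig 5) changed by -1.26 (SE 0.32, adjusted p = 0.0187), a call that was lost without button pileus 3 (adjusted p = 0.0502) or without maturation pileus 2 (adjusted p = 0.0515).

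**Figure D3:**
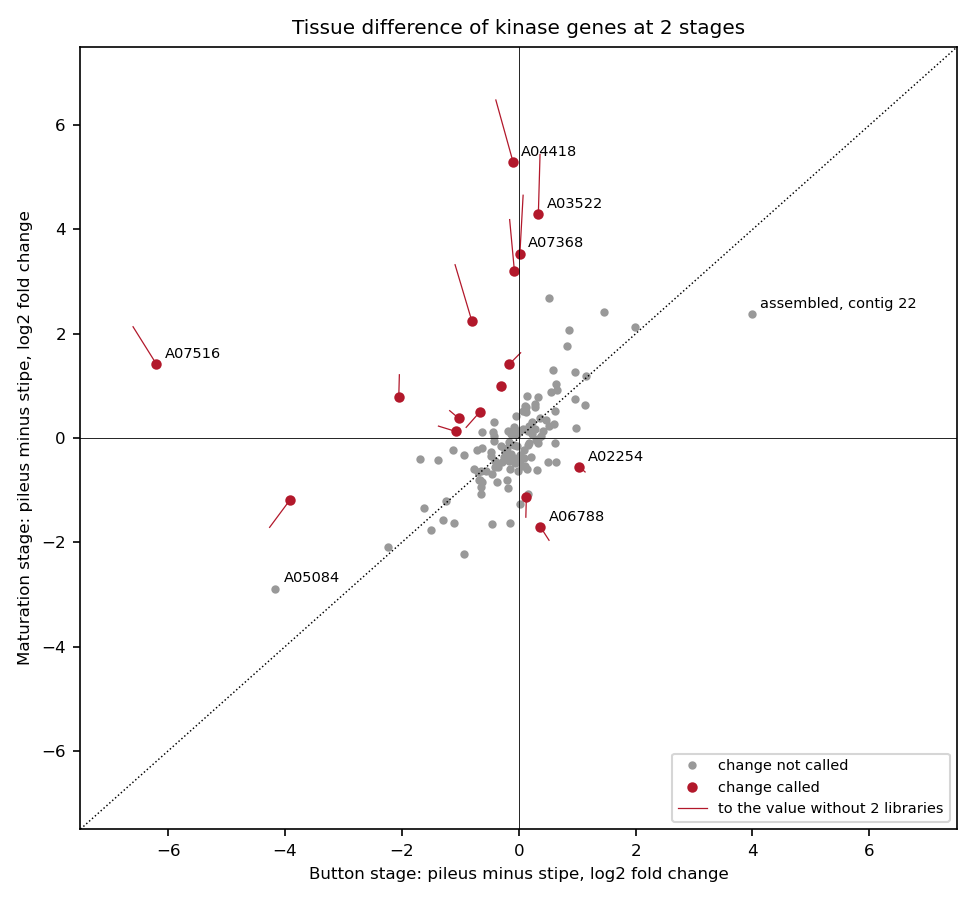
Log2 fold change of pileus over stipe at the button stage (x axis) and at maturation (y axis) for each kinase gene tested, with the dotted line marking equal differences. Red points are the 16 genes whose change was called, and the thin lines lead to the values without button stipe 1 and maturation pileus 3. A07516 lies far to the left, at -6.20 in the button, while A04418, A03522 and A07368 lie near 0 in the button and between 3.54 and 5.30 at maturation.

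The 15 kinase genes called higher in the mature pileus were 10.9% of those tested, against 13.6% of all genes. Besides A04418, A03522 and A07368 they included A05815 (contig 2), A07990 (contig 5) and A05529 (contig 2), described here after their values were seen. A05815 stood at 172, 114 and 17.7 FPKM in the mature pilei, 17, 13.3 and 12.1 FPKM in the harvest pilei and 9.34, 10.6 and 9.63 FPKM in the button pilei. A07990, which carries a Haspin-like domain (Haspin phosphorylates histone H3 at centromeres in dividing cells), stood at 151, 124 and 19.6 FPKM, 34.5, 19.6 and 25.2 FPKM, and 11, 11.2 and 11.4 FPKM in the same order. A05529 had 159, 114 and 14.1 FPKM in the mature pilei and 5.83, 6.13 and 6.35 FPKM in the button pilei. For these genes, too, maturation pileus 3 was several-fold below the other mature pilei.

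The whole mature fruit bodies followed the same division. In maturation fruit body 1, 2 and 3, A07368 stood at 4.97, 44.6 and 182 FPKM, A03522 at 1.31, 19.8 and 76.9 FPKM and A07990 at 9.42, 48.8 and 149 FPKM. The high value was that of maturation fruit body 3, which correlated with pileus, and the low value that of maturation fruit body 1, which correlated with stipe. Of the 6 meiosis genes, 4 were higher in the pileus at harvest and 4 at maturation, with 0 called at the button stage. The HORMA-domain genes A03768 and A04333 were not called, and A04333 stood at 61.7, 52.1 and 96.1 FPKM in mature pilei and 79, 80.9 and 75.1 FPKM in mature stipes. At maturation the Mnd1 gene A01318, which in yeast helps meiotic strand exchange, was higher by 5.29 (SE 0.65, adjusted p = 5.73e-05) and the type IIB topoisomerase gene A09162, the Spo11 class that cuts DNA to start meiotic recombination, by 3.69 (SE 0.61, adjusted p = 0.000417). A01318 stood at 104, 102 and 12 FPKM in mature pilei, a fall in maturation pileus 3 like that of the kinase genes. The part of meiotic cells in the level of these kinase genes was not tested.

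**Figure D4:**
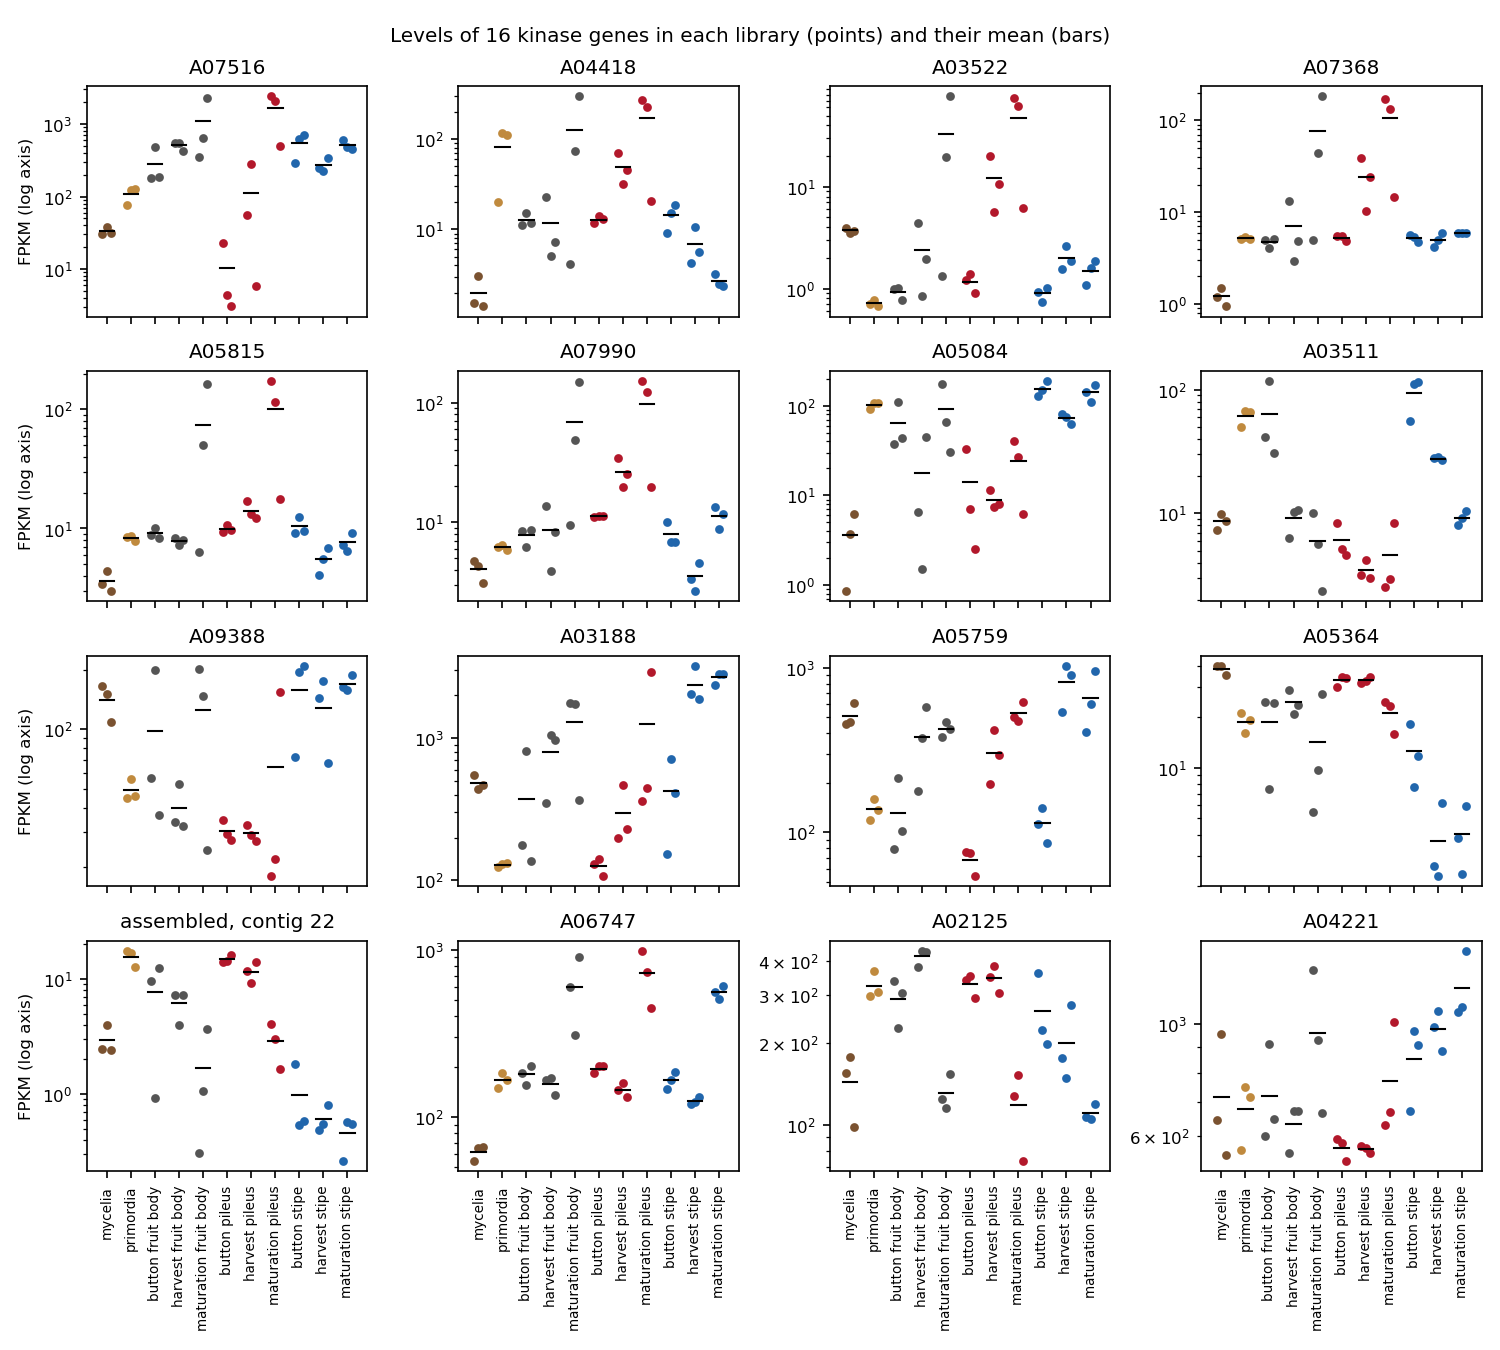
FPKM (log axis) of 16 kinase genes in each library (points, 3 for each condition) with the mean of each condition (black bar), coloured brown and ochre for mycelia and primordia, grey for whole fruit bodies, red for pileus and blue for stipe. A04418, A03522, A07368, A05815 and A07990 have their highest values in maturation pileus 1 and 2 and in maturation fruit body 3, while A03188 is highest in harvest and maturation stipes and in maturation pileus 3.

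Within the pileus, few kinase genes moved from button to harvest. With limma 2 of 137 were called, both higher (1.46%, against 0.728% of all genes, 0.578% higher and 0.15% lower). A05759 (contig 2) went from 75.4, 74.8 and 54.3 FPKM to 196, 418 and 295 FPKM, a rise of 2.10 (SE 0.33, adjusted p = 0.00722). A02066 (PF07714, contig 15) went from 3.04, 2.05 and 2.12 FPKM to 5.57, 4.28 and 4.8 FPKM, a rise of 1.01 (SE 0.18, adjusted p = 0.0127). Button pileus 3 carried the call of A05759 (adjusted p = 0.0529 without it), and A02066 lost its call without button pileus 2, button pileus 3 or harvest pileus 1 (adjusted p = 0.0831, 0.0852 and 0.109), and its fold was short of the required one with a pseudocount of 1 (0.80). The count was thus 0 without button pileus 3. Without maturation pileus 3, which enters through the shared variance, 7 genes were called, and without both odd libraries 8, all higher (4.28% of all genes, 2.8% higher and 1.48% lower). The latter added A03522 (3.11, SE 0.37), A07368 (1.99, SE 0.33), A04418 (1.85, SE 0.30), A07990 (1.19, SE 0.22), A03188 (1.15, SE 0.30) and A05529 (1.03, SE 0.20). All 6 of these genes had their highest pileus mean at maturation.

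From harvest to maturation 20 kinase genes were called in the pileus, 12 higher and 8 lower (14.6%, against 18.4% of all genes, 9.64% higher and 8.78% lower). Without the 2 libraries there were 14 higher and 6 lower (19.5% of all genes, 11% higher and 8.43% lower). With libraries scaled to their totals the median of all genes moved to -0.39 and the split to 6 higher and 20 lower. A07516 rose from 55.6, 278 and 5.87 FPKM to 2403, 2081 and 501 FPKM (4.91, SE 1.05, adjusted p = 0.00284). The harvest pilei of this gene were spread over more than an order of magnitude, yet all stood below the mature pilei. A05815, given above, rose by 2.32 (SE 0.56, adjusted p = 0.00592), and by 3.32 (SE 0.24) without the 2 libraries. A06747 (contig 3) rose in both tissues. It had 145, 160 and 132 FPKM in harvest pilei and 983, 739 and 447 FPKM in mature pilei (2.24, SE 0.21, adjusted p = 5.23e-06), and 120, 124 and 132 FPKM in harvest stipes and 557, 507 and 611 FPKM in mature stipes (2.15, SE 0.21, adjusted p = 3.5e-05). Lower in the mature pileus were the assembled gene of contig 22 (-2.04, SE 0.42, adjusted p = 0.00211, and -1.70 without the 2 libraries), A02125 and A06922. A02125 (contig 15) went from 351, 386 and 306 FPKM to 128, 153 and 73.9 FPKM (-1.61, SE 0.28, adjusted p = 0.000639, and -1.30 without the 2 libraries). A06922 (contig 3) went from 77.9, 92.4 and 82.7 FPKM to 41.2, 37.3 and 15.5 FPKM (-1.54, SE 0.33, adjusted p = 0.00269, and -1.10 without them).

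In the stipe the larger step came earlier, from button to harvest, with 19 kinase genes called, 11 higher and 8 lower (13.9%, against 12% of all genes, 5.79% higher and 6.19% lower). Without the 2 libraries there were 20, 11 higher and 9 lower (15.3% of all genes, 6.82% higher and 8.49% lower). With libraries scaled to their totals the median of all genes moved to -0.18 and the split to 8 and 10. An assembled gene on contig 4 (39458 to 41594) rose from 8.94, 17.1 and 14.7 FPKM to 90.1, 146 and 95.1 FPKM (3.03, SE 0.38, adjusted p = 0.00012), with a wide gap between the groups. A05759 rose from 113, 140 and 86.5 FPKM to 539, 1023 and 900 FPKM (2.83, SE 0.33, adjusted p = 8.33e-05), so that this gene went up in both tissues between button and harvest. A03188 rose from 152, 711 and 410 FPKM to 2044, 3201 and 1876 FPKM (2.70, SE 0.66, adjusted p = 0.00925), with button stipe 1 the lowest library, and by 2.09 (SE 0.34, adjusted p = 0.000403) without the 2 libraries.

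Of the 8 stipe genes that fell, those with the largest differences were A04825, A00056 and A05364. A04825 (contig 22, a kinase domain with a GTPase domain) went from 9.97, 7.97 and 11.9 FPKM to 1.32, 1.32 and 2.07 FPKM (-2.60, SE 0.57, adjusted p = 0.00501). It was highest in primordia, at 22.4, 25.4 and 21.5 FPKM, and stayed low in harvest fruit bodies. A05364 fell by 1.79 (log2 difference -1.79, SE 0.38, adjusted p = 0.00445). The fall of A00056 (-1.88, SE 0.60, adjusted p = 0.0362) was not called without any one of button stipe 1, button stipe 3, harvest stipe 1 or harvest stipe 2 (adjusted p of 0.0943, 0.118, 0.0945 and 0.112).

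Between harvest and mature stipes 6 kinase genes were called, 4 higher and 2 lower (4.38%, against 8.47% of all genes, 3.78% higher and 4.69% lower). Without the 2 libraries there were 8, 4 in each direction (13.6% of all genes, 6.65% higher and 6.97% lower). Scaling to library totals moved the median of all genes to -0.14 and the split to 1 higher and 3 lower. The count was 3 when any one of button pileus 2, button pileus 3, harvest pileus 3, button stipe 3, harvest stipe 3, maturation stipe 1 or maturation stipe 3 was left out, and limma-voom called 3 as well. Those 3 in limma-voom were A06747, A03511 and A08980. A03511 went from 28, 28.6 and 26.8 FPKM to 8.13, 9.27 and 10.4 FPKM (-1.58, SE 0.38, adjusted p = 0.012), so its level in the stipe had gone down at both steps from the button. A08980, which pairs PF07714 with the DUF3543 domain found in the autophagy kinase Atg1, went from 86.3, 69.1 and 62.2 FPKM to 27.5, 29.2 and 31.4 FPKM (-1.29, SE 0.28, adjusted p = 0.00776). The remaining calls, A00056 (1.86, SE 0.60, adjusted p = 0.0468), A07990 (1.67, SE 0.54, adjusted p = 0.0466) and A02200 (1.43, SE 0.44, adjusted p = 0.0393), were near the threshold. A07990 stood at 3.34, 2.66 and 4.54 FPKM in harvest stipes and 13.3, 8.84 and 11.6 FPKM in mature stipes, groups that did not overlap, yet its adjusted p was 0.107, 0.127 and 0.068 without harvest stipe 1, 2 and 3 and 0.135, 0.0736 and 0.113 without maturation stipe 1, 2 and 3. For A00056 the same 6 omissions gave 0.109, 0.116, 0.0749, 0.149, 0.0638 and 0.112.

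Of the members, 110 had no other Pfam domain and 30 did, and second domains placed some in a known family. The members of these families differed in how much they moved. The 4 genes with the C-terminal extension of AGC kinases (the class of protein kinases A, B and C) included A06740, whose C1, C2 and HR1 domains are those of protein kinase C, the fungal kinase of the cell-wall integrity pathway. A06740 stood at 64, 69 and 59.5 FPKM in harvest pilei and 169, 178 and 129 FPKM in harvest stipes, with no overlap (-1.30, SE 0.26, adjusted p = 0.00112). It was lower in primordia than in mycelia by 0.63 (log2 difference -0.63, adjusted p = 0.00368), below the fold required for a call. A08632 spanned condition means of 92.5 to 197 FPKM. A06100 and A06611 each had a Haspin-like domain too. A06100 was the most variable AGC gene, at 31.2, 35.9 and 27.2 FPKM in button stipes and 124, 215 and 168 FPKM in harvest stipes (2.40, SE 0.24, adjusted p = 2.51e-05). It fell from mycelia to primordia (-1.22) and rose from harvest to mature pilei (1.67).

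The polo kinase gene A08597, of a family that acts in mitosis and meiosis, ranged from 18.1 FPKM in mycelia to 39.1 FPKM in harvest stipes, and was not called in the comparison of mycelia with primordia or of pileus with stipe at any stage. The same held for A05321, which has the tRNA-synthetase-like domain of Gcn2, the kinase that slows translation when amino acids run short (23.2 FPKM in mature stipes to 57.8 FPKM in button pilei), for A09859, whose SAM and Ras-binding domains are those of the MAP kinase kinase kinase Ste11 (38 to 76.7 FPKM), and for A01303, whose FHA domain is found in checkpoint kinases (26.4 to 62.1 FPKM). For A09859 the absence of a call at maturation depended on the 2 odd libraries. Its difference there was -0.81 (SE 0.19, adjusted p = 0.00349) with them. Without them it was called lower in the mature pileus (-1.07, SE 0.14, adjusted p = 1.3e-05). A05576, with a response regulator domain as in Rim15, was lower in the button pileus than in the button stipe (44.7, 41.1 and 36 FPKM against 66.1, 94.1 and 89.8 FPKM, -1.02, SE 0.17, adjusted p = 0.000898).

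The part of the study's annotation used here named a few more. A00713 matches the LAMMER kinase Lkh1 of fission yeast and ranged from 64.4 FPKM in primordia to 109 FPKM in mature stipes, with no call in the comparisons of mycelia with primordia and of pileus with stipe. A00572 matches STK16, with 83.2 FPKM in button pilei and 44.8 FPKM in button stipes, a difference of 0.95 (SE 0.21, adjusted p = 0.00379) just short of the required fold. A00800 matches 6-phosphofructo-2-kinase, an enzyme of glycolytic control, and A00063 matches the corepressor TUP1, so these models hold a kinase domain beside one of another protein. A00800 was steady at 104 to 145 FPKM.

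The members lay on 26 of the 33 contigs of the table, and no member overlapped another gene. Members within 20000 bp of the next formed 4 runs of at least 3. The longest lies on contig 10 from 542750 to 583012 of the study's JA-15036 assembly, where 5 of the 7 genes in the table are members, all with PF07714 and none with PF00069. These 5 did not share a profile. A00056, the assembled gene and A00062 were highest in mycelia, at 10.2, 3.43 and 4.97 FPKM on average, and under 2.5 FPKM in every later condition. A00062 stood at 3.86, 4.7 and 6.34 FPKM in mycelia and 2, 0.664 and 1.07 FPKM in primordia (log2 difference -2.01). A00059 and A00063 had no such fall, and A00059 was higher in primordia (13.4, 12.7 and 9.67 FPKM) than in mycelia (6.19, 6.04 and 4.1 FPKM), a difference of 1.13. A00056 and A00062 match the same protein of Agaricus bisporus in the study's annotation, so how reads were shared between them is uncertain.

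A run on contig 22 (554533 to 573487) holds A04813, the assembled gene and A04818, 3 of 6 genes. All 3 rose from mycelia to primordia, by 1.05, 2.40 and 1.27, and the first 2 were the pileus genes described above. A04818 stood at 30.2, 3.93 and 4.1 FPKM in the button stipes, the high value being that of button stipe 1. Its pileus to stipe difference was called neither there (0.13) nor at maturation (0.80). Without button stipe 1 and maturation pileus 3, A04818 was called higher in the pileus at both stages. The differences were 1.10 (SE 0.26, adjusted p = 0.00232) and 1.47 (SE 0.26, adjusted p = 0.000186). At harvest it was higher by 0.93 in that fit (adjusted p = 0.00259), below the required fold. The runs on contig 6 (1565954 to 1586363: A08567, A08568 and A08571) and contig 1 (1592946 to 1597905: A03719, A03720 and A03721) hold 3 of 3 genes each. At maturation A08567 was lower in the pileus (-1.66) and its neighbour A08568, a gene that also holds a myosin motor domain, higher (1.04). A03719 was among the steadiest members, with a span of 0.47.

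**Figure D5:**
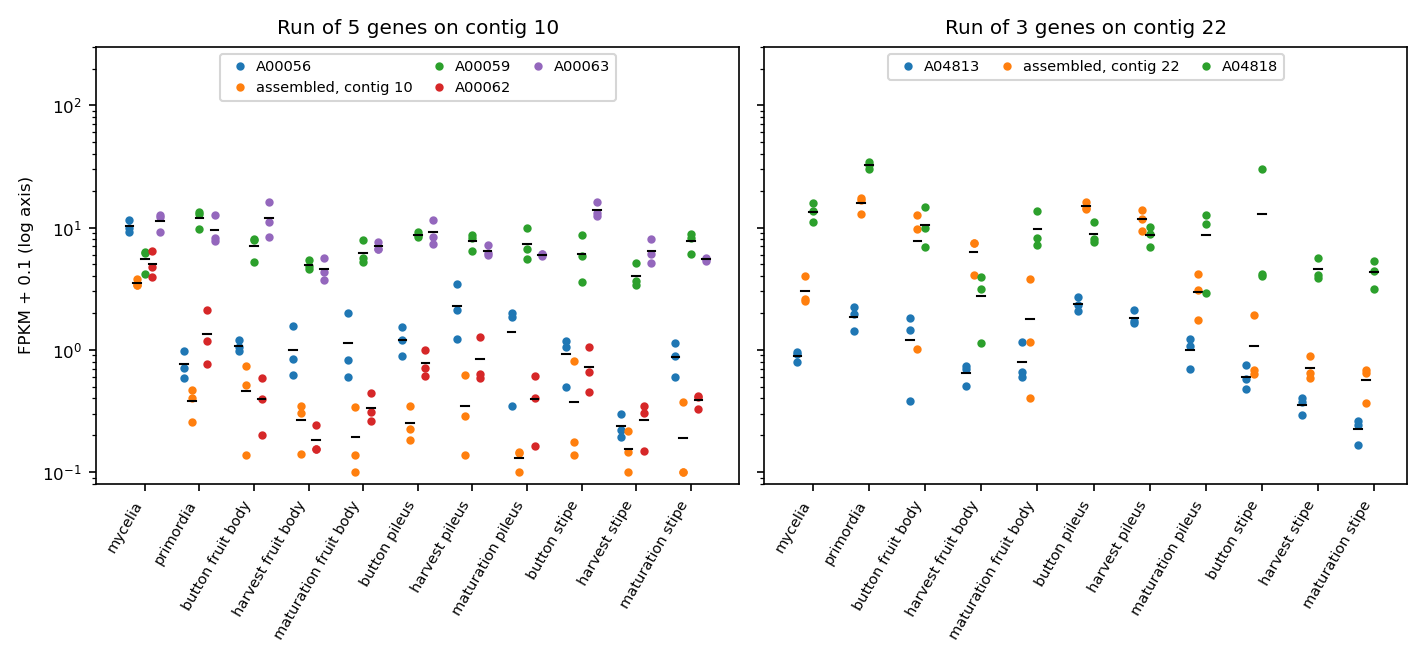
FPKM + 0.1 (log axis) of the members of the runs on contig 10 (left) and contig 22 (right) in each library (points, 3 for each condition, 1 colour per gene), with black bars for the mean. On the left, A00056, the assembled gene and A00062 are highest in mycelia while A00059 and A00063 stay between 3.29 and 16.2 FPKM, and on the right the assembled gene and A04813 are higher in pileus than in stipe.

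Genes that work with kinases moved in part. Their calls and differences are from the fits with button stipe 1 and maturation pileus 3 included, and were not repeated here without them. Among 21 protein phosphatases, which remove the phosphate, 1 was higher and 5 were lower in primordia than in mycelia (4.76% and 23.8%, against 15.1% and 22.5% of all genes, with a median of -0.37 against -0.04). At maturation 3 were higher and 3 lower in the pileus (14.3% each, against 13.6% and 11.5% of all genes). The dual-specificity phosphatase gene A03648, of a class that inactivates MAP kinases, rose in primordia by 1.67 (SE 0.19, adjusted p = 0.000182) and was lower in the button pileus than in the button stipe (-3.18, SE 0.35, adjusted p = 4.42e-05), the pattern also seen for A03511 and A05084. Of 14 cyclin genes and Cdk partners, 3 fell from mycelia to primordia (21.4%, against 22.5% of all genes). At maturation 4 were higher and 1 was lower in the pileus (28.6% and 7.14%, against 13.6% and 11.5% of all genes, with a median of 0.52 against 0.01). The largest of these differences was that of the cyclin gene A01120, which fell by 2.22 on the log2 scale from mycelia to primordia (SE 0.15, adjusted p = 1.73e-05) and was higher by 3.87 in the mature pileus (SE 0.67, adjusted p = 0.000612).

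Of 9 regulatory subunits and adaptors only some are described here, picked after their values were seen. The number called in each direction is not given, so they do not speak for the list. The AMP-activated kinase beta subunit A06557, part of the energy sensor called Snf1 in yeast, was lower in primordia than in mycelia (-1.50, SE 0.13, adjusted p = 6.01e-05). It was also lower in the harvest pileus than in the harvest stipe (-1.61, SE 0.35, adjusted p = 0.00195). The gene A05652, a model that joins a 14-3-3 domain (a protein that binds phosphorylated partners) to an aminotransferase, was lower in the pileus at button, harvest and maturation (-1.30, -2.75 and -2.28). Among 11 genes matched by histidine-kinase phosphorelay domains, 5 were lower and 1 was higher in the harvest pileus (45.5% and 9.09%, against 14.9% and 16.7% of all genes). The 5 included A06720, the phosphotransfer protein that passes phosphate from histidine kinases to response regulators (-2.90, SE 0.28, adjusted p = 7.87e-06), and the histidine kinase genes A01876, A00735 and A03875, but also A04687, an Hsp90 gene matched through its ATPase domain. The gene that was higher, A03909, is a topoisomerase matched in the same way. A06720 had also fallen from mycelia to primordia (-2.56, SE 0.14, adjusted p = 6.31e-06). Among 23 genes of other kinase folds, 4 were higher and 2 lower in the harvest pileus (17.4% and 8.7%, against 16.7% and 14.9% of all genes).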

How the data were processed

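RNA was sequenced on the Illumina platform by the authors, who mapped the reads to their JA-15036 genome using Hisat2, counted them per gene with featureCounts 1.5.0-p3 and deposited FPKM values for 33 libraries. The strand setting and the FPKM formula were not given in the sources read. FPKM times length gave whole read numbers in each library, from which depth was taken. Counting error from reads, with a floor of 3 reads over a group, is the least error a value can have.

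Linear models (limma 3.58.1 under R 4.3.3, mean-variance trend) were fitted to log2(FPKM + 0.1) for genes averaging 0.5 FPKM or more in the libraries of each fit: mycelia with primordia, primordia with button fruit bodies, and the 18 pileus and stipe libraries. A fold change on this scale understates the change of low genes. P-values were adjusted over all genes tested. Harvest and maturation whole fruit bodies entered no test. Replicate numbers were taken as pairing the samples only for primordia and button fruit bodies, where every correlation of same-numbered deviations was over 0.1. The fits were tested on simulated data.

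The members and lists were chosen with earlier results of these data known. Named are, for each comparison, the 3 called members with the largest rise and the 3 with the largest fall whose libraries do not overlap, the 3 with the highest mean, the 5 with the largest span, those of a family marked by a second domain (1 such family is not reported here), and those with a named homologue. Further genes were named after their values were seen: the low-span genes, the members of runs, genes called at more than 1 stage, and all genes of the partner lists. Alternatives were other pseudocounts, filters, scalings, limma settings, limma-voom on recovered reads, a replicate block, and leaving out each library. Leaving out button stipe 1 and maturation pileus 3 together was added after seeing the data. No sequence of a member was analysed here.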

Additional observations from a re-analysis of the deposited data

Results flagged for a closer look

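For 6 kinase genes the difference between pileus and stipe changed from the button stage to maturation by a test of the change itself (limma, over all genes). On the log2 scale the change was 7.61 for A07516, 5.39 for A04418, 3.95 for A03522, -2.08 for A06788, -1.59 for A02254 and -1.26 for A07975, positive toward the pileus. Without button stipe 1 and maturation pileus 3 the values were 8.74, 6.88, 5.07, -2.48, -1.79 and -1.64 in the same order, and all 6 were called. These 6 were the largest in each direction whose call passed, among 16 members called. The change of A03522 was not called in a fit of all 33 libraries (adjusted p = 0.0542) or with limma-voom (adjusted p = 0.155).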

How the results depend on the processing

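No direction of the 49 named differences turned in 1385 repeats under other settings, of which 1329 kept the call, and 40 of the 49 kept it in all. These 49 were chosen from the same data as large called differences, so a turn of direction was unlikely from the start. Some repeats left out a library outside the comparison, which leaves the fold change as it was. Leaving out 1 library gave 43 to 48 kinase genes called from mycelia to primordia, 0 to 3 from primordia to button fruit body, 10 to 22, 36 to 46 and 19 to 48 between pileus and stipe at button, harvest and maturation, 11 to 33 for the change of that difference, 0 to 7 and 14 to 23 in the pileus from button to harvest and on to maturation, and 15 to 24 and 3 to 8 in the stipe. The shares of all genes in these fits without 1 library are not given here, so the ranges do not set kinase genes apart from other genes. The pileus count from button to harvest was 1 with a pseudocount of 1 and 1 in a fit of all 33 libraries. The stipe count from harvest to maturation was 3 with limma-voom. Without both button stipe 1 and maturation pileus 3 the counts were 49 between pileus and stipe at maturation, 38 for the change and 8 in the pileus from button to harvest. With the replicate number as a block the counts were 47, 0, 18, 42, 30, 16, 2, 20, 19 and 4 in the order above. No source used here says what a shared number stands for in any comparison. The pairing of primordia with button fruit bodies was taken from the correlations in these same data. In every other comparison checked, at least 1 pair of same-numbered libraries had a correlation of deviations of 0.1 or less. Genes with few reads, such as the assembled gene of contig 10, have little precision.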
